A study of Homo sapiens with 12 samples.

Results

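Proteins named RNA-binding motif (RBM) carry 1 or more RNA recognition motifs, compact folds that bind short stretches of single-stranded RNA, and most of them act on pre-mRNA in the nucleus. The family includes parts of the spliceosome and of the exon junction complex, regulators that choose between splice sites, adaptors that hand RNA to methylation or decay machinery, and nucleolar proteins needed to make ribosomes. CIRBP and RBM3, a closely related pair, are known as cold-inducible proteins. Several RBM genes hold their own protein level through alternative splicing, in which an included exon or a kept intron brings in a premature stop codon, so both the amount of RNA and the mix of isoforms bear on how much protein a gene can make. The values below ask how both behaved when colorectal cancer cells were deprived of oxygen.

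The genes were taken by name: RBM followed by a number and at most 1 letter, together with RBMX, RBMX2, RBMS1, RBMS2 and CIRBP. This rule found 43 of the 56537 gene names among transcripts that matched a reference transcript (class code =) or shared at least 1 splice junction with one (class code j). A transcript was kept when its FPKM was above 0.5 in at least 3 libraries, which left 39 of the 43 members with 256 transcripts, out of 15758 gene names with 62162 transcripts of all classes. The members that did not pass were RBM11, RBM20, RBM44 and RBM46, whose highest unfiltered sums in any library were 0, 1.93, 0.406 and 1.09 FPKM. RBM8B matched the rule but is a processed pseudogene, a copy of the RBM8A mRNA, and its values are uncertain because reads of the 2 genes can be exchanged.

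HCT116, an established human colorectal cancer cell line, was grown at 21% oxygen (the 0 h group) or moved to 1% O2 for 1, 2 or 24 h, starting 24 h after plating. No gene was altered in any group. Each of the 4 time points had 3 biological replicates, 12 libraries in all, made from poly(A) RNA with a strand-specific kit. The sources used here do not state when the 0 h cells were collected relative to the 24 h cells, so time in culture and time in hypoxia cannot be told apart at 24 h. Of 10 hypoxia targets checked, 0 passed an adjusted p under 0.05 at 1 h, 2 rose at 2 h (ANKRD37 and VEGFA), and all 10 rose at 24 h, with median log2 fold changes of 0.10, 0.70 and 3.40. The early libraries were uneven in this response: the targets summed to 173 to 196 FPKM at 0 h, to 182, 205 and 428 FPKM at 1 h, to 281, 374 and 951 FPKM at 2 h, and to 2659 to 2986 FPKM at 24 h, so the third library stood apart at both early times. The summed epithelial markers (EPCAM, keratins 8, 18 and 19, CDH1 and VIL1) stood at 1998 to 2820 FPKM in every library, with VIL1, a marker of the intestinal brush border, at or near 0. Within that sum CDH1 and KRT19 rose at 24 h (log2 fold changes 1.70 and 0.99, limma adjusted p = 2.3e-06 and 1.7e-05), and EPCAM, KRT8 and KRT18 were not called. Markers of other cell types summed to 2.54 to 4.94 FPKM at 0 to 2 h and 11.5 to 16.4 FPKM at 24 h through COL1A1 and ACTA2, while PTPRC, PECAM1, CD14 and COL1A2 were at or near 0 throughout; the part of this rise in the results at 24 h was not tested.

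Expression is given as fragments normalised to transcript length and library size (FPKM), summed over the kept transcripts of a gene name. Since FPKM is a rate per length, levels can be compared between genes. The depth of each library is not known from these values, so no counting interval is given and precision is judged from how far the 3 replicates lie apart. Each time point was compared with 0 h by limma on log2(FPKM + 0.5), with p-values adjusted by Benjamini-Hochberg over all 15758 gene names. A log2 fold change on this scale understates the change of a gene with low FPKM.

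At 0 h the family spanned RBM3 at 194 ± 14.5 FPKM (SD, n = 3) to RBM43 at 0.564 ± 0.248 FPKM (SD, n = 3). Below RBM3 came RBMX, an hnRNP G protein that binds nascent transcripts, at 162 ± 7.37 FPKM, and CIRBP at 143 ± 2.84 FPKM. RBM8A, known as Y14 and a core member of the exon junction complex, followed, with 134, 121 and 114 FPKM in its libraries. RBM39 at 108 ± 5.18 FPKM and RBM17 at 108 ± 8.39 FPKM could not be ordered within their spread. The libraries of RBM3, RBMX and CIRBP did not overlap one another at 0 h, whereas the lowest RBM8A library (114 FPKM) lay within the range of RBM39 and RBM17.

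After 24 h in 1% O2 the family was lower on the whole. At an adjusted p under 0.05, 24 of the 39 members fell and 2 rose, while 31.2% of all gene names fell and 22.9% rose. With the added demand of a more than 2-fold change at an adjusted p under 0.01, 7 members fell (RBM45, RBM12B, RBM14, RBM12, RBM19, RBM28 and RBM3), against 10.5% of all gene names, and 1 rose (RBM15), against 8.34%. Every library at 24 h lay below every library at 0 h for 26 members, against 34% of all gene names, and above them for 3 members (RBM15, RBMS1 and RBMS2), against 25.4%. The median log2 fold change was -0.58 over the members and -0.09 over all gene names. These counts rest on the FPKM as deposited. Rescaling every library to a fixed sum over all its transcripts (TPM), a sum of which transcripts under 300 bases took 57.0% to 87.6%, moved the median of all gene names to -0.71 and that of the members to -1.37, with 23 members lower and 0 higher by the 2-fold call, against 24.8% and 1.4% of all gene names. When those short transcripts were left out of the sum, the median of all gene names was -0.18 and that of the members -0.68. Median-of-ratios scaling placed the 2 medians at 0.01 and -0.47, with 6 members lower and 1 higher, against 8.05% and 10.1% of all gene names.

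**Figure D1:**
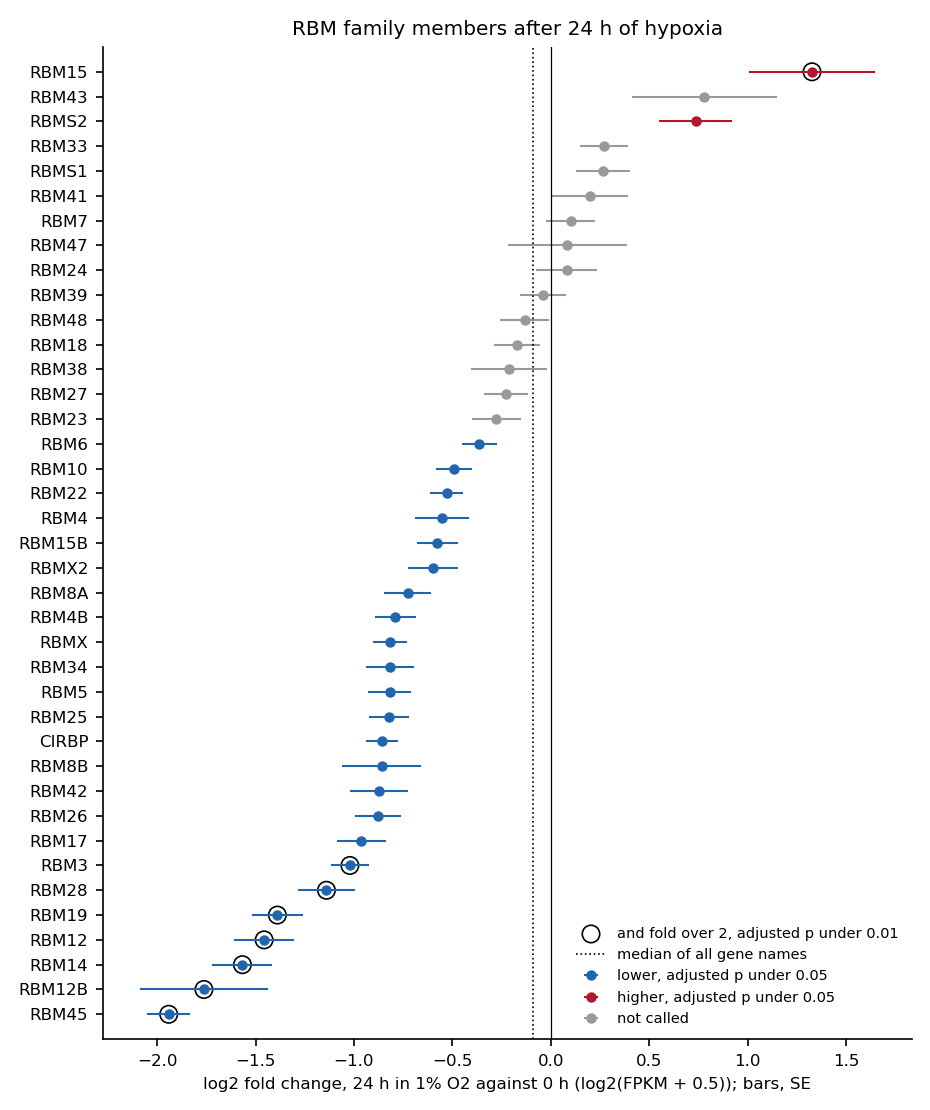
Log2 fold change of the 39 members after 24 h in 1% O2 relative to 0 h (x axis, log2(FPKM + 0.5) scale, with SE bars), ordered by size. Blue and red points passed an adjusted p under 0.05, black rings mark the 8 members that also passed the 2-fold call, and the dotted line is the median of all gene names at -0.09; most points lie to its left.

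The deepest fall was that of RBM45, an RNA-binding protein found in the protein aggregates of some neurodegenerative diseases, at chr2:178977125-179003738 (GRCh37, as the other loci below). RBM45 was at 8.82, 8.36 and 9.09 FPKM in the 3 libraries at 0 h, 8.43, 7.99 and 8.09 FPKM at 1 h, 8.06, 8.17 and 9.07 FPKM at 2 h, and 1.84, 1.88 and 2.01 FPKM at 24 h. The early libraries were alike and all of them stood well above the 24 h libraries, without overlap. At 24 h the log2 fold change was -1.94 (SE 0.11, limma adjusted p = 1.8e-07), which left 21.8% of the mean at 0 h.

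RBM12B, whose function is little known, was at 16.2, 19.9 and 20.6 FPKM at 0 h, 12, 11.9 and 12.6 FPKM at 2 h, and 3.20, 3.73 and 11.3 FPKM at 24 h. Its groups at 0 and 24 h did not overlap, but the third library at 24 h stood about as high as the libraries at 2 h, and the SD at 24 h was 4.51 FPKM. The log2 fold change at 24 h was -1.76 (SE 0.33, limma adjusted p = 6.5e-04), and the call held under all 20 alternative settings. RBM12, a further RNA-binding protein of unclear role at chr20:34213898-34288906, was at 56.4, 61.2 and 61.1 FPKM at 0 h and 17.3, 20.1 and 28.0 FPKM at 24 h, a log2 fold change of -1.46 (SE 0.15, limma adjusted p = 8.8e-06). RBM12 lies in 1 Cufflinks locus with CPNE1 and NFS1, and the sum over that locus changed by -0.05 on the log2 scale (limma adjusted p = 0.625), so the fall of RBM12 was not seen over the whole locus.

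The family's regulators of splice site choice split into those that fell and those that did not pass the test. Of 13 such members, 11 were measured, and 7 of these fell (RBM14, RBMX, RBM5, RBM4B, RBM4, RBM10 and RBM6) against 31.2% of all gene names, with a median over all 11 of -0.49. RBM14, a paraspeckle protein and transcriptional coactivator at chr11:66383931-66445392, was at 35.6, 38.8 and 45.9 FPKM at 0 h, 32.6, 34.1 and 34.5 FPKM at 2 h and 14.7, 10.2 and 15.2 FPKM at 24 h. Its 24 h libraries reached 33.3% of the mean at 0 h, with a log2 fold change of -1.57 (SE 0.15, limma adjusted p = 5.6e-06). RBM14 shares its locus with RBM4, and a readthrough transcript joins both genes. The sum over that locus changed by -0.83 (limma adjusted p = 8.5e-05), which does not meet the 2-fold call. RBM4, which acts on alternative exons, went from 62.3 ± 9.34 to 42.0 ± 2.43 FPKM (SD, n = 3; log2 fold change -0.55, SE 0.14, limma adjusted p = 0.00431). Its neighbour and near-identical paralog RBM4B went from 16.6 ± 0.797 to 9.43 ± 0.799 FPKM (SD, n = 3; log2 fold change -0.79, SE 0.10, limma adjusted p = 5.1e-05). Reads can be shared between the 2 paralogs.

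RBMX was at 169, 162 and 154 FPKM at 0 h, 178, 181 and 157 FPKM at 1 h, 166, 159 and 175 FPKM at 2 h, and 90.7, 96.0 and 88.3 FPKM at 24 h. It was flat over the early time points, and its log2 fold change at 24 h was -0.82 (SE 0.08, limma adjusted p = 8.9e-06). RBMXL1, an intronless copy of RBMX that can take its reads, was at 21.6 to 25.0 FPKM at 0 h and 12.1 to 15.3 FPKM at 24 h. The members of the group that did not pass at 24 h were RBM23, RBM38, RBM24, which is known for muscle splicing, and RBM47, an epithelial splicing factor and partner of APOBEC1, with log2 fold changes of -0.28, -0.21, 0.08 and 0.08. RBM38, a p53 target, spread widely at 24 h, with 29.4, 17.6 and 15.6 FPKM.

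RBM5, RBM6 and RBM10 are related regulators with overlapping targets, and RBM5 and RBM6 lie side by side at chr3:49977440-50226508. RBM5, a tumour suppressor that promotes exon skipping in apoptosis genes, was at 33.2, 33.9 and 33.4 FPKM at 0 h, 23.9, 30.0 and 27.5 FPKM at 1 h, 18.1, 22.6 and 19.5 FPKM at 2 h, and 18.0, 18.4 and 20.0 FPKM at 24 h. No library in hypoxia reached the level at 0 h, and the libraries at 2 h already overlapped those at 24 h. At 2 h the log2 fold change was -0.73 (SE 0.11, limma adjusted p = 0.0258, and 0.00887 with the replicate number as a block), and RBM5 was the only member called at that time. The call at 2 h was lost when any single library of the comparison other than the second at 2 h was left out (limma adjusted p = 0.0898 to 0.135), and with annotated isoforms only (-0.99, limma adjusted p = 0.116). From 2 to 24 h RBM5 differed by -0.09 (limma adjusted p = 0.54), and at 24 h it was -0.82 relative to 0 h (SE 0.11, adjusted p = 5.9e-05). RBM6 went from 27.8 ± 0.815 to 21.5 ± 1.23 FPKM over 24 h (SD, n = 3; log2 fold change -0.36, SE 0.09, limma adjusted p = 0.00439). RBM10 went from 26.1 ± 1.27 to 18.4 ± 0.962 FPKM (SD, n = 3; log2 fold change -0.49, SE 0.09, limma adjusted p = 6.6e-04).

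With FPKM as deposited, 1 member was called at the early time points. At 1 h no member passed an adjusted p under 0.05 in limma, and 0.00635% of all gene names were called in either direction. At an unadjusted p under 0.05 there was 1 member, against 4.31% of all gene names. At 2 h the 2-fold call held for 0 members and for 0.0317% of all gene names. At an unadjusted p under 0.05 there were 5 members, against 15% of all gene names, a share no higher than the background. At an adjusted p under 0.05 the calls at 2 h were RBM5 among the lower members, against 0.0762% of all gene names, and 0 higher members, against 0.19%. The members' median log2 fold change was -0.06 at 1 h and -0.08 at 2 h. Without the third library, which stood apart in the hypoxia targets, 0 members were called at 1 h and 0 at 2 h, where RBM5 was at -0.72 (limma adjusted p = 0.0972). Of all gene names 0.00635% were then higher and 0.0127% lower at 1 h, and 0.0825% and 0.00635% at 2 h. The counts at 2 h changed under TPM over all transcripts: 28 members were lower at 2 h at an adjusted p under 0.05, against 53.1% of all gene names, and 2 were lower by the 2-fold call, against 2.14%, with the median of all gene names at -0.90 and that of the members at -1.12. When the TPM sum left out transcripts under 300 bases, these medians were -0.03 and -0.09. On that scale 0.124% of all gene names were lower at 2 h at an adjusted p under 0.05. Between 2 and 24 h, 22 members fell, against 28.1% of all gene names, and 2 rose, against 20.8%.

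Both cold-inducible members fell at 24 h, and with FPKM as deposited neither passed the test before that. CIRBP was called lower at 2 h in 1 of 20 alternative settings (limma adjusted p = 0.036). RBM3, at chrX:48431482-48439545, was at 199, 206 and 178 FPKM at 0 h, 209, 219 and 196 FPKM at 1 h, 242, 238 and 223 FPKM at 2 h, and 89.0, 90.8 and 108 FPKM at 24 h. All libraries at 2 h lay above those at 0 h, but the difference of 0.27 on the log2 scale did not pass the test (SE 0.10, limma adjusted p = 0.229), and under TPM it turned to -0.82 (adjusted p = 0.108). At 24 h RBM3 was at 49.3% of its mean at 0 h, a log2 fold change of -1.02 (SE 0.10, limma adjusted p = 4.5e-06). This lies at the edge of the 2-fold call, which held in 16 of 20 alternative settings. Under median-of-ratios scaling the value was -0.91, without the second library at 0 h it was -0.98, without the first at 24 h -0.97 and without the second at 24 h -0.98. CIRBP, at chr19:1259384-1274879, was at 141, 142 and 146 FPKM at 0 h, 136, 151 and 148 FPKM at 1 h, 130, 133 and 144 FPKM at 2 h, and 74.4, 78.6 and 83.6 FPKM at 24 h. CIRBP overlapped its 0 h level at both early time points and was apart at 24 h, with a log2 fold change of -0.86 (SE 0.08, limma adjusted p = 4.5e-06). Of 5 genes for cold shock domain proteins, which share the response to cold but not the RNA recognition motif, 3 were measured; YBX3 rose (log2 fold change 0.44, SE 0.09, limma adjusted p = 0.00149), against 22.9% of all gene names, and the other two were not called.

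**Figure D2:**
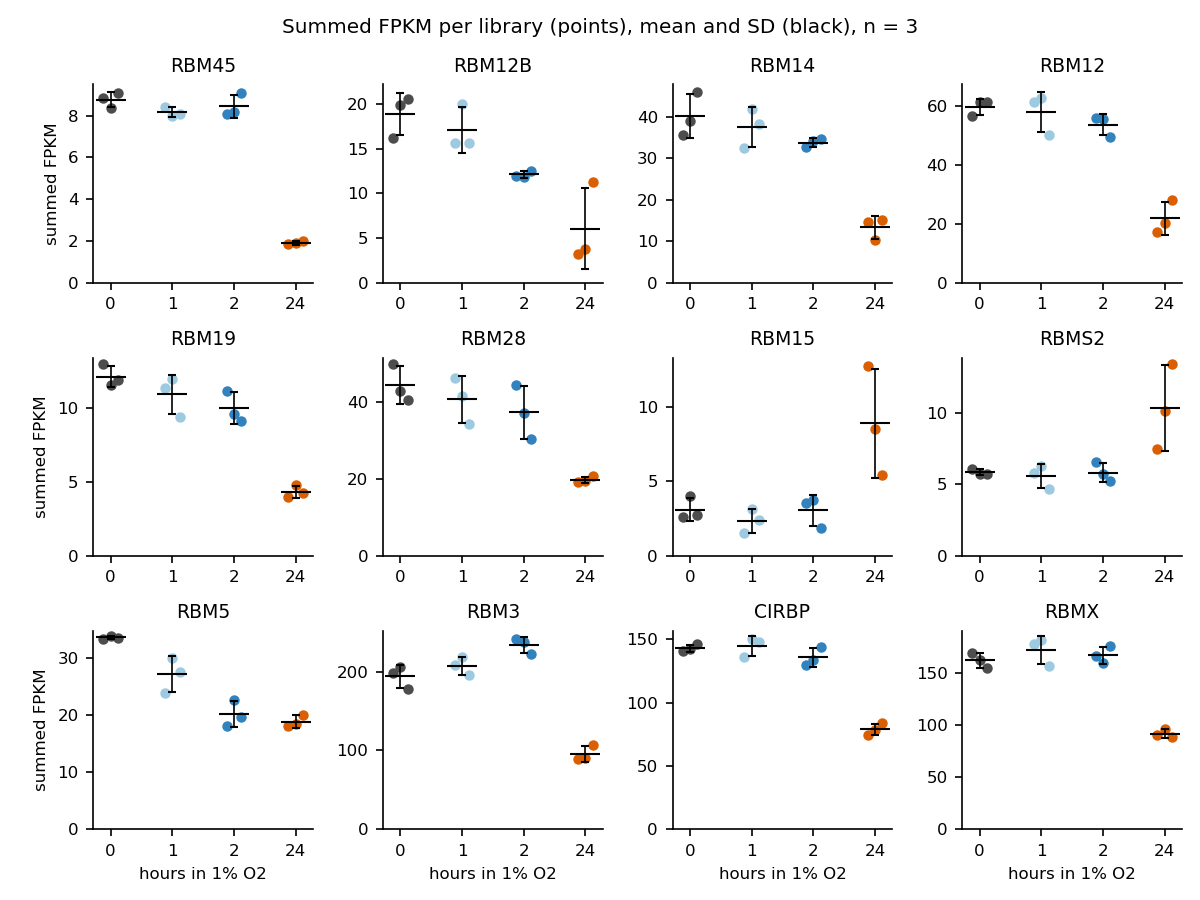
Summed FPKM (y axes, from 0) of 12 members against hours in 1% O2 (x axes), with a point for each library and the mean and SD of 3 libraries in black. RBM45 is flat to 2 h and then low, RBM5 is already low at 2 h, RBM3 is at its highest at 2 h and its lowest at 24 h, and RBM15 and RBMS2 are high and spread at 24 h.

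All 3 nucleolar members fell, against 31.2% of all gene names. RBM19, which processes pre-ribosomal RNA, was at 13.0, 11.5 and 11.9 FPKM at 0 h and 3.98, 4.77 and 4.24 FPKM at 24 h, a log2 fold change of -1.39 (SE 0.13, limma adjusted p = 3.9e-06). RBM28, needed for the large ribosomal subunit, was at 50.1, 42.8 and 40.5 FPKM at 0 h and 19.3, 19.6 and 20.7 FPKM at 24 h (-1.14, SE 0.15, limma adjusted p = 4.1e-05). RBM34, which shares its locus with ARID4B, went from 71.4 ± 5.79 to 40.4 ± 4.10 FPKM (SD, n = 3; -0.82, SE 0.12, limma adjusted p = 1.2e-04). In each of the 3 the libraries at 0 and 24 h were apart.

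Of the 8 members that are spliceosome components, 5 fell (RBM17, RBM42, RBM25, RBMX2 and RBM22), against 31.2% of all gene names, and 3 were not called (RBM39, RBM41 and RBM48). RBM17, known as SPF45, binds 3' splice site proteins; it was at 116, 108 and 99.0 FPKM at 0 h, 91.1, 101 and 79.6 FPKM at 2 h and 62.8, 57.1 and 46.0 FPKM at 24 h. The 24 h libraries were all below the lowest at 2 h, with a log2 fold change of -0.96 (SE 0.13, limma adjusted p = 4.9e-05). RBM25, which works with the U1 snRNP on 5' splice sites, was at 78.7, 77.2 and 70.8 FPKM at 0 h and 42.2, 42.2 and 43.0 FPKM at 24 h (-0.82, SE 0.10, limma adjusted p = 3.3e-05). RBM42, RBMX2 and RBM22, the last a protein of the catalytic core, had log2 fold changes of -0.87, -0.60 and -0.53. RBM39, a partner of the U2AF proteins that is degraded by aryl sulfonamide drugs, was at 107, 104 and 114 FPKM at 0 h and 85.8, 123 and 111 FPKM at 24 h. Its libraries at 24 h spanned those at 0 h, with a log2 fold change of -0.04 (SE 0.12, limma adjusted p = 0.803). RBM41 and RBM48, which take part in splicing of the rare minor-type introns, differed by 0.20 and -0.13 on the log2 scale, with limma adjusted p-values of 0.407 and 0.383. Among 11 partners at the 3' splice site and in the U2 snRNP, 10 fell at an adjusted p under 0.05, against 31.2% of all gene names, and 0 rose, with a median of -0.74. SF3B4 and U2SURP passed the 2-fold call at -1.34 and -1.27. This list, like the other lists of genes outside the family, was chosen with earlier results of these data known.

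RBM8A was at 134, 121 and 114 FPKM at 0 h, 132, 120 and 108 FPKM at 1 h, 134, 134 and 106 FPKM at 2 h, and 76.1, 80.1 and 66.1 FPKM at 24 h. The early groups overlapped and the 24 h group was apart, with a log2 fold change of -0.73 (SE 0.12, limma adjusted p = 3.0e-04). The pseudogene RBM8B was listed at 82.3 ± 12.9 FPKM at 0 h and 46.1 ± 12.9 FPKM at 24 h (SD, n = 3; -0.86, SE 0.20, limma adjusted p = 0.0031). Of 10 partners in the exon junction complex, 9 fell, against 31.2% of all gene names, and 0 rose, with a median of -0.65. MAGOH and MAGOHB, the interchangeable proteins that pair with RBM8A, were at -1.23 (SE 0.14) and -1.85 (SE 0.12).

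The 2 members that bring the m6A methyltransferase to RNA moved in opposite directions. RBM15, at chr1:110693108-111174096, was low, at 2.59, 4.01 and 2.73 FPKM at 0 h, 1.52, 3.13 and 2.44 FPKM at 1 h, 3.55, 3.73 and 1.88 FPKM at 2 h, and 12.8, 8.55 and 5.43 FPKM at 24 h. The libraries at 24 h were all above the rest but spread more than 2-fold among themselves. The log2 fold change was 1.33 (SE 0.32, limma adjusted p = 0.00395). The 2-fold call held in 13 of 20 alternative settings. It was lost through an adjusted p above 0.01 without replicate 1 or 3 at 0 h (1.23 and 1.26), without replicate 1 or 2 at 24 h (1.04 and 1.32), with a filter of 1 FPKM (1.23) and with no filter (1.33). Under TPM RBM15 was at 0.51 (limma adjusted p = 0.223). RBM15B, its paralog, was at 9.94 ± 0.0799 FPKM at 0 h and 6.51 ± 0.591 FPKM at 24 h (SD, n = 3; -0.58, SE 0.10, limma adjusted p = 5.4e-04). Of 6 partners in the writer complex 4 fell, against 31.2% of all gene names, and 0 rose, against 22.9%, among them WTAP at -0.88 (SE 0.11) and METTL3, the catalytic subunit, at -0.23 (SE 0.08).

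Hypoxia-inducible factors bind the core letters ACGTG or GCGTG, so these letters were searched on both strands in RefSeq promoters (GRCh38.p14) of 300 bases, from 250 before to 50 after the start of the gene. A promoter was found for 34 of the 39 members, and 22 of them (64.7%) held at least 1 match, against 48.4% of all 27305 promoters. The upstream 250 bases are shown for the member that rose most and the one that fell most, at chr1:110339127-110339376 and chr2:178112187-178112436, both on the plus strand, with matches in capitals.
RBM15 promoter: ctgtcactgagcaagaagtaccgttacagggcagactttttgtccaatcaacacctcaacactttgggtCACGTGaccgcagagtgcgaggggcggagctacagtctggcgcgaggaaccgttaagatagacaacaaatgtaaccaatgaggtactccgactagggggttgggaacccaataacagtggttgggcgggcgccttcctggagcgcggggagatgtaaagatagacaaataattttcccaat
RBM45 promoter: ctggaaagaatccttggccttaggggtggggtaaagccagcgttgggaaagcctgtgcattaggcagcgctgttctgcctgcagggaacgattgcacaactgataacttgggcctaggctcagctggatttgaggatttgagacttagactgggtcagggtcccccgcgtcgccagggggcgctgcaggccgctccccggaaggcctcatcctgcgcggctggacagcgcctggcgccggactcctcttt
The RBM15 promoter held a palindrome that reads as ACGTG on both strands, so its 2 matches overlap. The RBM45 window held none of these letters. A match is only a run of letters and no sign of binding. Of 22 members that fell and had a promoter, 16 (72.7%) held a match, and of the 2 that rose, 1 did. Among the 10 members with a promoter and no call at 24 h, 5 held a match. The set of all 27305 promoters was not limited to genes past the filter on FPKM, as the members were. Whether these shares differ was not tested.

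The adaptors of the nuclear exosome, which degrades and trims nuclear RNA, gave a mixed result. RBM26 fell from 29.6 ± 1.27 to 16.0 ± 2.21 FPKM (SD, n = 3; log2 fold change -0.88, SE 0.12, limma adjusted p = 5.8e-05). RBM27, its paralog, was at 15.4, 16.3 and 15.4 FPKM at 0 h, 19.6, 17.9 and 17.8 FPKM at 2 h and 12.4, 12.5 and 15.3 FPKM at 24 h, with neither change called (limma adjusted p = 0.356 and 0.0999). RBM7, of the nuclear exosome targeting complex, was at 21.0 ± 0.262 and 22.8 ± 4.11 FPKM at 0 and 24 h (SD, n = 3), a log2 difference of 0.10 (SE 0.13, limma adjusted p = 0.528). Of 9 exosome partners 7 fell, against 31.2% of all gene names, and 0 rose, with a median of -0.61 and the core subunit EXOSC3 lowest at -1.35.

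RBMS1 and RBMS2 bind single-stranded nucleic acid, and of the pair RBMS2 passed the test. RBMS2 was at 6.09, 5.72 and 5.70 FPKM at 0 h and 7.46, 10.1 and 13.4 FPKM at 24 h, without overlap, a log2 fold change of 0.74 (SE 0.19, limma adjusted p = 0.00529). That rise was carried by assembled isoforms of class j. With annotated isoforms alone RBMS2 was at -1.77 (limma adjusted p = 0.00699), and under TPM at -0.08 (adjusted p = 0.878). The pseudogene RBMS2P1, which can share reads with RBMS2, was at 6.86 to 7.58 FPKM at 0 h and 10.7 to 13.9 FPKM at 24 h. RBMS1 was at 5.26 ± 0.232 and 6.44 ± 0.431 FPKM (SD, n = 3), a log2 difference of 0.27 (SE 0.14, limma adjusted p = 0.119). Among 16 RNA-binding splicing regulators outside the RBM names, 4 rose and 6 fell, close to the 22.9% and 31.2% of all gene names, with a median of -0.02; MBNL2 and the epithelial regulator ESRP1 rose to 1.46 and 1.25, and TRA2B and TRA2A fell by 1.39 and 1.21 on the log2 scale.

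Isoform usage was tested as the log2 ratio of each transcript to the rest of its gene, with a Simes p per gene adjusted over 10680 genes. At 24 h it had changed in 16 of 37 members with at least 2 transcripts, against 27.6% of all genes tested. Without the second library at 24 h the count was 10 members, against 17.4% of all genes. At 2 h isoform usage had changed in 0 members, against 0.00936% of all genes. Of the 16 members 12 were also lower in level, 1 (RBMS2) was higher, and 3 (RBM39, RBM33 and RBMS1) had no called change in level. Cufflinks divides reads between overlapping isoforms by a likelihood model, and 9 of the 16 members had a transcript listed at 0 in all 3 libraries at 0 h or at 24 h, which can be a failed estimate; no fold is given against such a value. RBM39, RBM6, RBM5, RBM19 and RBM33 were called under all 13 alternative settings and RBM45 under all 12 that could be run for it.

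The main coding mRNA of RBM5, RBM5-201, was at 17.8, 19.0 and 19.8 FPKM at 0 h, 2.73, 7.26 and 9.55 FPKM at 2 h and 2.72, 2.32 and 4.67 FPKM at 24 h. Its libraries at 2 h were spread but all lay below those at 0 h. Its share of the gene's FPKM went from 56.3 ± 2.76% to 17.0 ± 5.61% (SD, n = 3) over 24 h. The log2 ratio to the other isoforms changed by -2.51 (SE 0.51, limma adjusted p = 0.0116; adjusted p for the gene 0.014), whereas the transcript's own change at 2 h (-1.61) was not called (adjusted p = 0.275). A class j isoform of 3127 bases was at 0.463, 1.34 and 0.726 FPKM at 0 h and 4.44, 3.18 and 1.84 FPKM at 24 h. Class j isoforms together held 12.8% of RBM5 at 0 h and 45.4% at 24 h. The fall of RBM5 was therefore steeper in its annotated mRNA than in the gene sum.

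RBM6 gained a class j isoform of 2678 bases, related to RBM6-211, that was listed at 0 in all libraries at 0, 1 and 2 h and at 2.52, 2.92 and 1.85 FPKM at 24 h. The annotated RBM6-211 of 4010 bases went from a mean of 1.86 FPKM to being listed at 0. Retained-intron transcripts RBM6-216 and RBM6-217 went from 0.713 ± 0.644% and 0.904 ± 0.849% of the gene to 6.22 ± 2.35% and 5.42 ± 1.79% (SD, n = 3; limma adjusted p = 0.00532 and 0.0101). The adjusted p of isoform usage for RBM6 was the lowest in the family.

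RBM39 kept its level but not its composition. The main coding mRNA RBM39-203 went from 20.0% to 11.3% of the gene, and the share of transcripts annotated as anything other than protein coding went from 38.8, 45.6 and 40.3% at 0 h to 60.3, 59.5 and 62.4% at 24 h. These groups did not overlap, and the log2 ratio of noncoding to coding FPKM rose by 1.11 (SE 0.22, limma adjusted p = 0.00795). Retained-intron transcripts RBM39-222 (0.214, 0.559 and 0.841 FPKM at 0 h, 2.31, 3.15 and 3.14 FPKM at 24 h) and RBM39-223 (1.63, 1.70 and 1.72 FPKM, then 3.38, 6.72 and 8.48 FPKM) rose within the gene (limma adjusted p = 0.00441 and 0.00921). RBM39-216, a nonsense-mediated decay (NMD) transcript and one of the most abundant noncoding forms, was at a mean of 13.5 FPKM at 0 h and 16.3 FPKM at 24 h. It includes a cassette exon of 73 bases after the second exon, at chr20:34328447-34328519 on the minus strand, which is shown because its length is not a multiple of 3 and it holds a stop codon (capitals) 1 base before its end.
RBM39-216 exon: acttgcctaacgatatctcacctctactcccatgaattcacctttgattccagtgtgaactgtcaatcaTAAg
Whether the retained-intron transcripts RBM39-222 and RBM39-223 take in this exon was not tested.

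RBM45 had 2 transcripts past the filter, a coding mRNA and RBM45-202, which keeps an intron. The mRNA RBM45-201 was at 8.52, 7.88 and 8.67 FPKM at 0 h and 1.40, 1.62 and 1.79 FPKM at 24 h. RBM45-202 was at 0.302, 0.485 and 0.419 FPKM at 0 h and 0.443, 0.258 and 0.225 FPKM at 24 h, which overlap, and its own change was not called (-0.16, limma adjusted p = 0.717). Its share went from 4.61 ± 1.19% to 16.3 ± 6.83% (SD, n = 3), and the log2 ratio rose by 1.92 (SE 0.31, limma adjusted p = 0.00394), through the fall of the mRNA. The intron, between the sixth and the following exon at chr2:178988379-178988554 on the plus strand, has 176 bases of which 33.5% are G or C; capitals mark its first and last 2 bases.
RBM45-202 intron: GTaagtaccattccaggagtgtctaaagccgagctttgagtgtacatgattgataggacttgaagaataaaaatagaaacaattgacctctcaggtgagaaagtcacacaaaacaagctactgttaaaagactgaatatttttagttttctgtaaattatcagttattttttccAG

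In RBM28 the share of the retained-intron transcript RBM28-207 rose from 2.60 ± 0.330% to 10.3 ± 4.46% (SD, n = 3; limma adjusted p = 0.00842) while its FPKM (1.12, 1.14 and 1.17 at 0 h, 1.00, 2.35 and 2.82 at 24 h) was not called. The isoform call of RBM28 held in 11 of 13 alternative settings and was lost without the first library at 0 h (limma adjusted p = 0.0565) or the second at 24 h (0.0551). The NMD transcript RBM28-206 fell within the gene, from 8.39 ± 3.42% to 0.885 ± 1.53% (SD, n = 3; limma adjusted p = 0.0285). The intron kept in RBM28-207, at chr7:127975734-127975900 on the minus strand, has 167 bases, 44.9% G or C, and is given for comparison with that of RBM45.
RBM28-207 intron: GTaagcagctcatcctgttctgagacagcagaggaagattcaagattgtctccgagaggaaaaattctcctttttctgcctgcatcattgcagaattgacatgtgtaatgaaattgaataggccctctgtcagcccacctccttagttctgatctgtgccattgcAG
Neither intron has a length that is a multiple of 3.

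In CIRBP the main mRNA fell and an NMD transcript did not. CIRBP-201 was at 108, 102 and 106 FPKM at 0 h and 40.8, 44.1 and 54.9 FPKM at 24 h. CIRBP-210 was at 4.22, 2.71 and 4.21 FPKM at 0 h and 5.42, 5.88 and 7.48 FPKM at 24 h, all above 0 h, with a change of its own that was not called (0.69, limma adjusted p = 0.0931). Its share rose from 2.60 ± 0.60% to 7.90 ± 0.908% (SD, n = 3; log2 ratio 1.63, SE 0.32, limma adjusted p = 0.0108), and isoform usage of CIRBP was called at an adjusted p of 0.0285, in 6 of 13 alternative settings. The 2 transcripts share the exon at chr19:1271980-1272050 on the plus strand and then part, CIRBP-201 continuing at 1272426 and CIRBP-210 at 1274306. The spliced ends are shown up to 15 bases past the stop codon, which is in capitals.
CIRBP-201 end: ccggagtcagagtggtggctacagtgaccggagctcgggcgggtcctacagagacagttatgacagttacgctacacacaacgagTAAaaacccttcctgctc
CIRBP-210 end: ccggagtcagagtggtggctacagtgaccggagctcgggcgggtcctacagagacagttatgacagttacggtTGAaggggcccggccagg
In CIRBP-201 the stop codon comes 14 bases after the junction, in the last exon. In CIRBP-210 it comes 2 bases after the junction and 1 further exon follows, an arrangement of the kind that NMD acts on.

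RBM10 changed between coding isoforms. RBM10-202, which skips an exon, was at 1.47, 5.04 and 3.65 FPKM at 0 h and 0.999, 2.07 and 0.00267 FPKM at 2 h. It was listed at 0 in all libraries at 24 h. RBM10-201, which includes that exon, and RBM10-203 held 45.8% and 25.7% of the gene at 0 h and 45.4% and 32.7% at 24 h. The 2 class j isoforms together went from 15.4 ± 3.16% to 21.9 ± 3.46% (SD, n = 3), without overlap. Whether RBM10-203 and the class j isoforms hold the exon was not tested. The adjusted p of isoform usage was 0.0249, and the call held in 9 of 13 alternative settings. RBM10 is recurrently mutated in lung cancer. The exon's 231 bases, a multiple of 3 that keeps the reading frame, lie at chrX:47030427-47030657 on the plus strand.
RBM10 exon: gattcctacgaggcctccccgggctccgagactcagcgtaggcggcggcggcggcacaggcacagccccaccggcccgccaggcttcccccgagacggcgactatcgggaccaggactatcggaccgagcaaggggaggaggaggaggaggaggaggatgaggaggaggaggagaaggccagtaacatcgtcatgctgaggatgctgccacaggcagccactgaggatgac

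**Figure D3:**
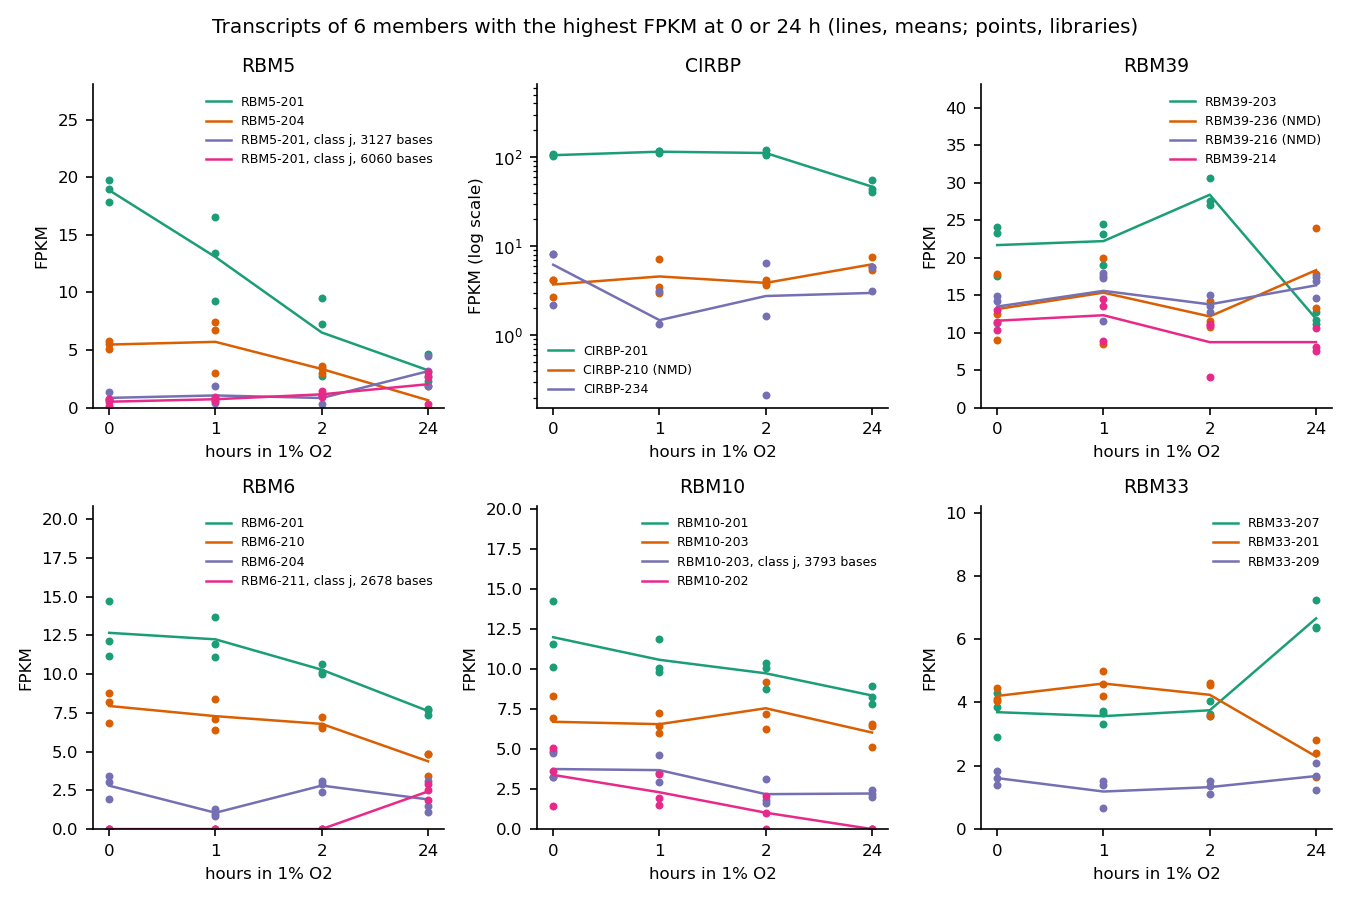
FPKM (y axes; log scale for CIRBP, from 0 for the others) of the transcripts with the highest mean FPKM at 0 or 24 h in 6 members, against hours in 1% O2. Lines join the means and points are libraries; RBM5-201 falls from 1 h on, RBM39-203 drops at 24 h below the NMD transcripts RBM39-236 and RBM39-216, RBM10-202 declines to a listed 0, and RBM33-207 and RBM33-201 cross between 2 and 24 h.

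Other members changed among coding isoforms as well. In RBM33 the long mRNA RBM33-207 of 10149 bases rose from 2.92, 3.87 and 4.29 FPKM at 0 h to 6.40, 6.34 and 7.23 FPKM at 24 h, and the short RBM33-201 of 1404 bases fell from 4.10, 4.05 and 4.47 to 2.83, 1.64 and 2.41 FPKM. The 2 were thus close at 0 h and apart at 24 h (limma adjusted p for the ratios 0.0236 and 0.00233). In RBM25 a class j isoform of 3483 bases went from 2.27, 2.74 and 1.66 FPKM to 5.95, 7.0 and 6.74 FPKM, or from 2.92 ± 0.602% to 15.4 ± 1.26% of the gene (SD, n = 3; limma adjusted p = 0.00171), while the total fell. In RBM4B the share of RBM4B-206 fell from 35.7 ± 3.66% to 17.8 ± 1.53% (SD, n = 3; limma adjusted p = 0.0112). In RBM19 the share of RBM19-203 of 4422 bases rose from 13.4 ± 0.992% to 29.5 ± 7.25% (SD, n = 3; limma adjusted p = 0.00944). Its mean FPKM was 1.62 at 0 h and 1.28 at 24 h, and that of RBM19-202 was 3.13 and 0.34. RBM26 gained in a class j isoform of 6738 bases, from 2.59 ± 1.13% to 7.92 ± 0.611% (SD, n = 3; limma adjusted p = 0.0125). RBM12B gained in RBM12B-201 of 8538 bases, from 0.322 ± 0.521% to 13.5 ± 0.987% (SD, n = 3; limma adjusted p = 0.0141), and RBMS2-201 of 3147 bases was listed at 0 at 24 h after 13.5 ± 7.87% at 0 h. The isoform call of RBM25 held in 12 of 13 alternative settings, but not with annotated isoforms only (limma adjusted p = 0.103), and that of RBM4B in 11 of 13, but not by diffSplice, limma's own test of isoform usage (0.0573), or without the first library at 0 h (0.0571). Other calls were less stable: RBM26 was called in 7 of 13 alternative settings, RBM12B in 6, RBMS2 in 8 and RBMS1 in 7. RBM8A, at a gene adjusted p of 0.0497, stood at the threshold, through RBM8A-202, a retained-intron form of under 1% of the gene, and was called in 5 of 13 alternative settings.

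Transcripts annotated as something other than protein coding (retained intron, NMD or without a defined coding sequence) could be compared with coding ones in 21 members. The log2 ratio of noncoding to coding FPKM rose at 24 h in 7 of them (RBM45, RBM6, RBM39, RBM25, CIRBP, RBM4B and RBM22), against 8.72% of all genes tested, and fell in 0, against 4.2%, while without the first library at 0 h 4 members rose, against 4.44%. As a share of the gene's FPKM, the noncoding part grew in 15 of the 21 members, with a median change of 2.49 percentage points, where over all genes it grew in 56.7%, with a median of 0.671 points. RBM25, RBM39 and RBM6 were called under all 12 alternative settings and RBM45 under all 11 that could be run for it, whereas CIRBP kept its call in 7 of 12, RBM22 in 6 of 12 and RBM4B in 4 of 11.

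Retained-intron transcripts were measured in 12 members, grew in share in 11 and lay above 0 h in every library at 24 h in 8. Their median change was 6.39 percentage points, against 1.17 points over the 3325 genes with such transcripts, of which 65.0% grew and 24.9% were apart above. RBM22 had its whole noncoding part in 3 retained-intron transcripts, at 8.57, 14.1 and 5.84% at 0 h and 24.4, 24.7 and 16.2% at 24 h (log2 ratio 1.38, SE 0.40, limma adjusted p = 0.0425). In RBM5 the retained-intron share was 14.1, 14.4 and 12.4% at 0 h and 31.1, 19.4 and 34.1% at 24 h, apart but not called in the ratio (1.24, SE 0.47, limma adjusted p = 0.111). RBM6 went from 8.41, 6.44 and 8.59% to 22.7, 16.7 and 32.0% in all its noncoding transcripts (1.67, SE 0.29, limma adjusted p = 0.00496). The libraries at 24 h were uneven in these shares.

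The noncoding share was smaller at 24 h in RBM3 and RBMX, the 2 members with the highest FPKM at 0 h. The noncoding share of RBM3 was 43.4, 41.1 and 39.5% at 0 h and 34.7, 30.8 and 32.7% at 24 h, and that of RBMX was 15.0, 18.7 and 13.7% at 0 h and 4.66, 11.3 and 9.47% at 24 h. Both pairs of groups were apart, as were those of RBMX2, which makes 3 of 21 members apart below 0 h, near the 10.1% of all genes, and 10 apart above, against 18.1%. The log2 ratio was called neither in RBM3 (-0.52, limma adjusted p = 0.135) nor in RBMX (-1.03, limma adjusted p = 0.188). In RBM3 the transcripts without a defined coding sequence RBM3-205 and RBM3-208 went from 35.8 and 31.6 FPKM to 11.5 and 11.2 FPKM on average, and in RBMX the like transcript RBMX-205 went from 22.7 to 5.64 FPKM. RBM18, RBM24 and RBMX2 also had a smaller noncoding share, changed by -6.70, -6.45 and -2.98 percentage points, without a called ratio.

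**Figure D4:**
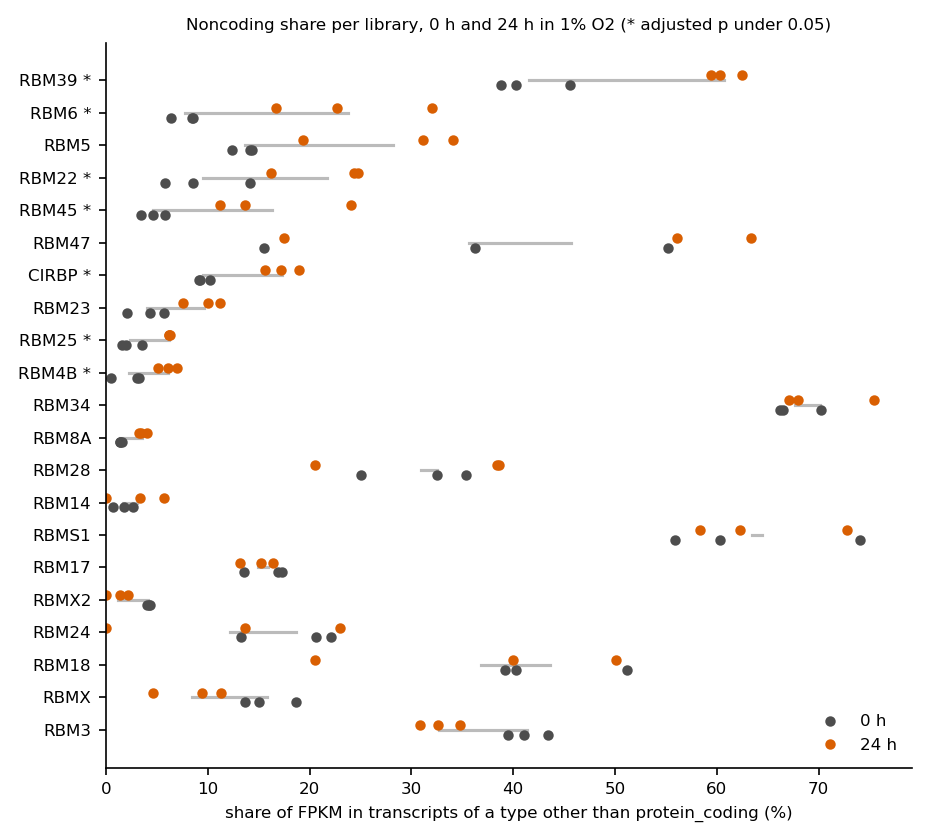
Share of a member's FPKM in transcripts of a type other than protein coding (x axis, percent), with a grey point for each of the 3 libraries at 0 h, an orange point for each at 24 h, and a grey line between the means, for 21 members ordered by change. Asterisks mark the 7 members whose noncoding to coding ratio passed an adjusted p under 0.05; RBM39 moves furthest to the right, by 19.2 percentage points, and RBM3 furthest to the left.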

How the data were processed

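Transcript FPKM of 12 libraries were used as the authors deposited them: per the labels and the study's methods, reads were mapped to hg19 with Mapsplice, assembled with Cufflinks and merged across libraries, with Ensembl as reference. CASAVA 1.8.2 is named in the submitters' processing notes. The study's junction-read filter was not repeated. Here, transcripts above 0.5 FPKM in at least 3 libraries were summed by gene name and tested with limma 3.58.1 (R 4.3.3) with a mean-variance trend over all 12 libraries, without a replicate block. Transcript types and coordinates came from GENCODE release 44 on GRCh37. A class j transcript took the type of its nearest reference, and 11 member transcripts had none. Ratios used a pseudocount of 0.5. With 3 against 3 libraries an exact permutation test cannot go below 0.1. The fits were tested on simulated data. Members and lists were chosen with earlier results of these data known. Named in full were members past the 2-fold call, CIRBP and RBM3, the 6 with the highest FPKM at 0 h, the 12 with the smallest isoform-usage p, and the 5 largest changes of noncoding share in each direction.

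Same-numbered libraries at 0 and 2 h deviated together weakly (mean correlation 0.228, lowest 0.113). The mean was 0.22 between 0 and 1 h and 0.28 between 1 and 2 h. No label states that the numbers pair libraries, and no values for differently numbered libraries are set beside these. Whether the numbers pair libraries is therefore not known. Between 0 and 24 h the mean was 0.0921 and the lowest 0.0154.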

Additional observations from a re-analysis of the deposited data

Results flagged for a closer look

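Of the 24 members with an adjusted p under 0.05 between 2 and 24 h, RBM3 and RBM27 are singled out by the order of their libraries and not by the size of the difference. In both, all 3 libraries at 2 h lay above those at 0 h and all 3 at 24 h lay below them. The difference between 24 and 2 h, tested with limma, was -1.29 for RBM3 (SE 0.10, adjusted p = 1.3e-06) and -0.45 for RBM27 (SE 0.11, adjusted p = 0.00455). Against 0 h, RBM3 at 2 h (0.27, limma adjusted p = 0.229) and RBM27 at 2 h (0.23, 0.356) and 24 h (-0.23, 0.0999) did not pass the test. Under TPM over all transcripts the values at 2 h turned to -0.82 for RBM3 and -0.79 for RBM27.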

How the results depend on the processing

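The 8 members past the 2-fold call at 24 h became 23 under TPM over all transcripts, which also gave 2 members by that call at 2 h, 28 members with an adjusted p under 0.05 at 2 h, and a log2 fold change of -0.82 for RBM3 at 2 h. The members' median at 2 h was -1.12 on that scale, and -0.09 when the TPM sum left out transcripts under 300 bases. The single member with an adjusted p under 0.05 at 2 h became 0 without a filter on transcripts, with class code = only, with sums per Cufflinks locus, and without a trend in the variance. Leaving out 1 library gave 0 to 1 such members at 2 h, 10 to 13 members with changed isoform usage at 24 h (16 with all libraries, 10 without the second at 24 h), and 4 to 5 with a changed noncoding ratio (7 with all, 4 without the first at 0 h). The share of all genes called in isoform usage fell likewise, from 27.6% to between 15.4% and 22.4%. The share called higher in noncoding ratio fell from 8.72% to between 4.4% and 7.52%. The share of all gene names lower at 2 h, 0.0762% in the main fit, was 0% to 0.0571% with 1 library left out. It was 0.00675% without a filter, 0.00655% with class code = only and 0.0254% without a trend in the variance. Without a filter 25 of 41 members changed in isoform usage, against 39.1% of all genes. With a pseudocount of 0.1 the share of all genes was 19.2%, and CIRBP, RBM12B, RBM26 and RBM8A lost the call. With a pseudocount of 1 the share was 36.6%, and RBM3, RBM14, RBM15B, RBM17, RBM22, RBM23, RBM41 and RBM42 gained it. For a higher noncoding ratio the shares of all genes were 6.07% and 11.5%. With the replicate number as a block, 8 members were changed at 24 h by the 2-fold call (8.58% of all gene names higher, 10.6% lower), 28 at an adjusted p under 0.05 (24.6% and 33.4%), 16 in isoform usage (24.8% of all genes), and 8 in noncoding ratio (8.14% higher). At 2 h that block gave 1 member at an adjusted p under 0.05, with 0.825% of all gene names higher and 0.59% lower. The cause of these differences was not tested. Depth could not be read from FPKM, and low isoforms near 0.5 FPKM are the least certain values.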
